A study of Mus musculus with 7 samples.

Results

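Genes of lipoprotein assembly, transfer, uptake and apolipoprotein mRNA editing were compared between retinal pigment epithelium (RPE) of WT and LC3b-/- mice. The group holds 10 genes taken by symbol, out of 52740 gene identifiers in the count table: the apolipoprotein genes Apob and Apoc1, the assembly gene Mttp, the transfer and lipase genes Pltp and Lpl, the cytidine deaminase genes Apobec1 and Apobec3, and the receptor genes Vldlr, Lrp1 and Lrp8. All 10 had a matching identifier. Messenger RNA was sequenced in 7 libraries, 1 per mouse, from 4 WT mice (3 females F1, F2 and F3 and 1 male M1) and 3 LC3b-/- mice (2 females F1 and F3 and 1 male M). All mice were 24 months old. The sample titles also carry a group code that differs between the genotypes, and LC3b-/- M has a code shared with no other library. The meaning of the code is not given, and it cannot be told apart from genotype. The LC3b-/- mice carry the Map1lc3b allele Map1lc3btm1Mrab in the strain B6;129P2, a deletion that is not limited to RPE, and the WT mice were C57BL6/J, so strain background and the targeted gene cannot be told apart here. RPE was released from the eye with hyaluronidase and trypsin, and each library is a bulk sample of the released cells.

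Lipoproteins are particles of lipid and protein that carry cholesterol and triglyceride between cells. MTTP, the microsomal triglyceride transfer protein, loads lipid onto apolipoprotein B in the endoplasmic reticulum, and the particle leaves the cell through the Golgi apparatus. In blood, lipoprotein lipase removes triglyceride from the particles, the phospholipid transfer protein PLTP moves phospholipid between them, and endocytic receptors take them up. RPE cells take in photoreceptor outer segments every day and are known to release lipoproteins containing apolipoprotein B towards Bruch's membrane. APOBEC1 deaminates a cytidine in Apob mRNA and turns a glutamine codon into a stop codon, so that the short apolipoprotein B-48 is made in place of B-100.

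The edited site is shown because it links Apob to Apobec1. In the longest Apob transcript of GENCODE vM39 (GRCm39) 93 in-frame codons read CAA, and 1 of them was followed closely by the letters TGATCAG, with which the mooring sequence of the editing complex begins. It is codon 2179 of 4505, counted from the start methionine, in exon 26 of 29, a coding exon. The codon is in capitals in the stretch below, which reads 5′ to 3′ on the plus strand.
Apob edited codon, chr12:8058045-8058074, GRCm39: tacgcgataCAAtttgatcagtatattaaa

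Promoters are shown for genes whose libraries did not overlap between the genotypes: Mttp and Pltp, lower in LC3b-/-, and Apobec1 and Apobec3, higher in LC3b-/-. Apoc1 also did not overlap and had no matched window. They are RefSeq windows on GRCm38.p6, from 250 bases before to 50 bases after the annotated start, read 5′ to 3′ in the direction of transcription. RefSeq windows were matched for 8 of the 10 genes by symbol, in 12 entries, and the first entry of Apobec3 is given. Capitals mark every match, on either strand, to the GC box GGGCGG, the interferon response core (GAAA, any 2 bases, GAAA), the nuclear receptor half-site AGGTCA, the PU box GAGGAA and the sterol response core CACNCCAC, and no marked matches overlap in these 4 windows.
Mttp, chr3:138143369-138143668, minus strand: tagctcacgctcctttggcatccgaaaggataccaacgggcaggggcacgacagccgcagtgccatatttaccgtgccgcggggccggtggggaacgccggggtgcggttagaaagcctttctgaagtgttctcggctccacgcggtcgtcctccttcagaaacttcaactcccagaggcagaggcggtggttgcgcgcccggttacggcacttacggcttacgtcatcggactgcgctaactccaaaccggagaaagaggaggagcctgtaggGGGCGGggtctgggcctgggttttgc
Pltp, chr2:164857659-164857958, minus strand: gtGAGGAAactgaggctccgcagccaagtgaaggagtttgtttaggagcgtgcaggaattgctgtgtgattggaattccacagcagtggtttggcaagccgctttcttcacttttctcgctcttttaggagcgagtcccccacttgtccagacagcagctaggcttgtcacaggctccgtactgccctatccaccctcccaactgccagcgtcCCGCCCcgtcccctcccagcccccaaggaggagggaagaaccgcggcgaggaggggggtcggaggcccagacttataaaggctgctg
Apobec1, chr6:122602395-122602694, minus strand: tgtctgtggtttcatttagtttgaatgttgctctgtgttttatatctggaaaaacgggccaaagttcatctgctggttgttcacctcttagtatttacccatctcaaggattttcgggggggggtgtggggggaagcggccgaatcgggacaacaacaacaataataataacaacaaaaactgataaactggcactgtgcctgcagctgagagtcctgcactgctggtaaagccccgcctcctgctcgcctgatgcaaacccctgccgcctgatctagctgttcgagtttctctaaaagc
Apobec3, chr15:79892158-79892457, plus strand: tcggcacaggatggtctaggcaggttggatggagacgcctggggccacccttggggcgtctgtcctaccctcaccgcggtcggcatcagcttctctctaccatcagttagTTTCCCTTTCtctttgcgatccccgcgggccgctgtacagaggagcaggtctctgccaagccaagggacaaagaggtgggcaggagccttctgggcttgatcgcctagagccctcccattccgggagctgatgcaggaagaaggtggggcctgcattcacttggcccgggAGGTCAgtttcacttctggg
The Mttp and Pltp windows each held a GC box, which 35.7% of all 32851 windows hold, and Pltp also held a PU box, present in 28.3%. The first Apobec3 window held an interferon response core, found in 3.44% of windows, and a nuclear receptor half-site, found in 16.3%, and the second Apobec3 window held neither of these and a PU box instead. The Apobec1 window held none of the 5 motifs. The sterol response core, present in 6.24% of windows, was in none of the 4. These matches describe letters in the window and say nothing of binding.

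The libraries held 24495952 to 35616134 counts, and 16990 genes were abundant enough to test. Map1lc3b itself was measured at 2778 to 4444 counts in WT and 168 to 332 counts in LC3b-/- libraries, and its level fell by 3.98 on the log2 scale (edgeR adjusted p = 0.000186), which fits the labels. RPE markers were abundant in all 7 libraries: the summed CPM (counts per 1000000, after TMM scaling of library size) of 10 markers reached 30231 to 47580 in WT. In LC3b-/- the sum was 13330 to 28274, below every WT library (exact two-sided permutation p = 0.0286), with 9 of 10 markers lower and a median log2 difference of -0.81 in the list. Best1, a chloride channel gene counted among them, was at a mean of only 1.27 CPM in WT. Markers of other cells were also present. Rod photoreceptor markers summed to 275 to 20901 CPM in WT and 96.4 to 7103 CPM in LC3b-/-. Ocular surface epithelium markers, mainly keratins, summed to 5.13 to 2052 CPM in WT and 2104 to 16366 CPM in LC3b-/-, with 7 of 7 higher. Endothelial markers summed to 211 to 694 CPM in WT and 831 to 880 CPM in LC3b-/-, with 8 of 8 higher. In bulk samples, fewer cells of a type and less RNA per cell cannot be told apart.

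The main test was edgeR's quasi-likelihood test, adjusted by Benjamini-Hochberg across every gene tested, and a gene was called where its adjusted p was under 0.05 and it differed at least 1.5-fold. None of the lipoprotein genes was called. Of 10 genes, 9 passed the filter on low counts (all but Apob), and 0 of these 9 were called, where 0.235% of all genes tested were called. At an unadjusted p under 0.05, 3 were higher (Apoc1, Apobec1 and Apobec3) beside 13.5% of all genes, and 2 were lower (Mttp and Pltp) beside 10.6% of all genes. The same 5 genes did not overlap between the genotypes in CPM: 3 lay above every WT library, as 12.0% of all genes did, and 2 lay below every WT library, as 10.3% did. DESeq2, the tool named in the study's methods, called these 5 genes at the same thresholds. Of these, 3 were higher, beside 7.57% of the 15976 genes with a DESeq2 adjusted p, and 2 were lower, beside 3.89%. The median log2 difference over the 9 genes was -0.17, with 4 higher and 5 lower, and over all 16990 genes it was 0.01.

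**Figure D1:**
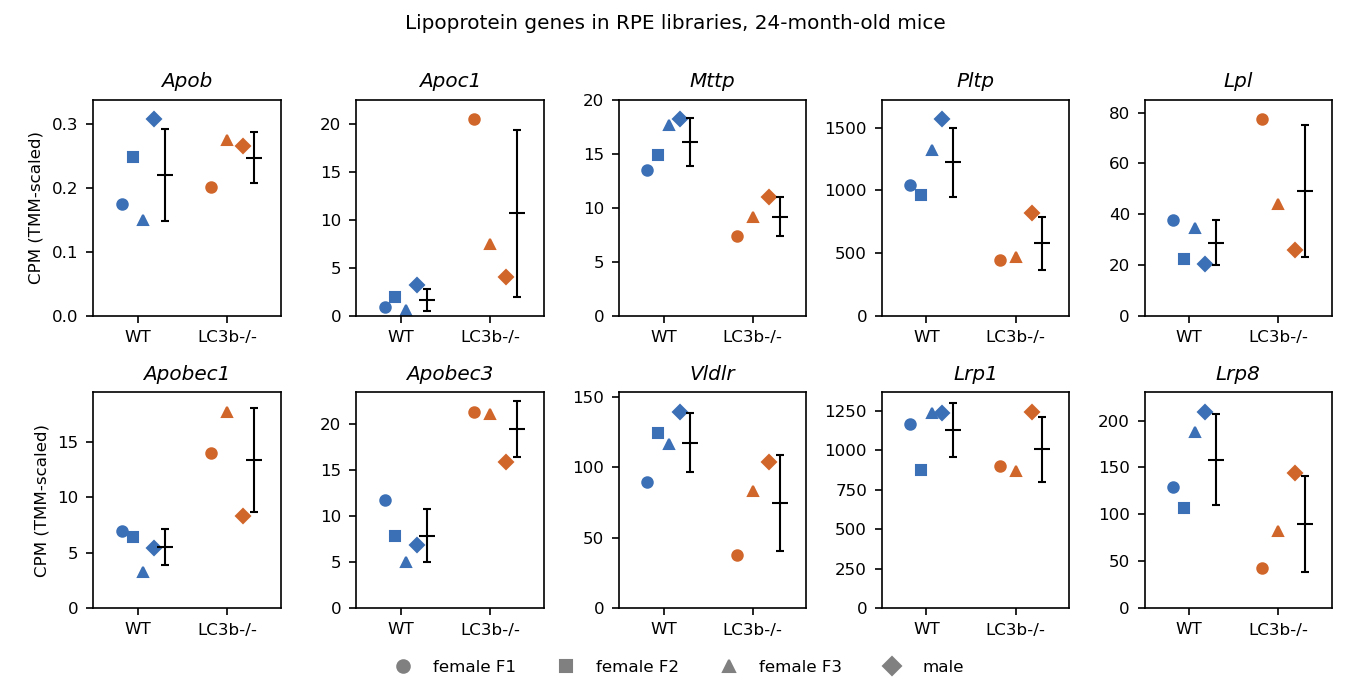
Level of each of the 10 genes in every library, in TMM-scaled CPM on linear axes that start at 0, with blue points for the 4 WT and orange points for the 3 LC3b-/- libraries and a symbol for each mouse; the bar is the mean with 1 SD. Mttp and Pltp show every LC3b-/- point below every WT point, Apoc1, Apobec1 and Apobec3 show every LC3b-/- point above, and the other 5 genes overlap.

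Levels per kilobase of canonical transcript (CPM divided by its length) spanned several orders of magnitude in WT. Pltp was the highest at 674 ± 152 CPM per kb (SD, n = 4), followed by the endocytic receptor gene Lrp1 at 75.7 ± 11.6 CPM per kb. Lrp8 at 19.9 ± 6.08 and Vldlr at 14.3 ± 2.54 CPM per kb came next, and their ranges of 1 SD around the mean overlapped. Lpl stood at 6.99 ± 2.14 CPM per kb, and Mttp at 4.05 ± 0.561 and Apobec3 at 3.85 ± 1.39 CPM per kb were not separated by their spread. Apobec1 at 1.72 ± 0.512 and Apoc1 at 1.17 ± 0.828 CPM per kb also had overlapping ranges of 1 SD. Apob was last at 0.0158 ± 0.00514 CPM per kb.

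In LC3b-/- the top and the bottom of this order were the same. Pltp was at 318 ± 117 CPM per kb (SD, n = 3), Lrp1 at 67.5 ± 13.9 and Apob at 0.0178 ± 0.0029 CPM per kb. The mean of Mttp, at 2.31 ± 0.452 CPM per kb, stood below that of Apobec1 at 4.18 ± 1.48 CPM per kb, and their ranges of 1 SD overlapped slightly. The means of Lpl (11.9 CPM per kb), Lrp8 (11.3), Apobec3 (9.54), Vldlr (9.09) and Apoc1 (7.56) had ranges of 1 SD that overlapped with those of their neighbours.

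Positions of the 10 genes are given on GRCm39. Apob (chr12:8027648-8066835, plus strand), which encodes the structural protein of chylomicrons, VLDL and LDL, was near the limit of detection. The WT libraries F1, F2, F3 and M1 held 6, 6, 4 and 8 counts, and LC3b-/- F1, F3 and M held 5, 11 and 9 counts. The counts overlapped, and at this depth no difference between the genotypes was detectable (exact two-sided permutation p = 0.514 on log2 CPM). Apob therefore has no fold change, and its editing cannot be read from a table of counts per gene.

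Apoc1 (chr7:19422540-19427328, minus strand) encodes a small apolipoprotein of VLDL and HDL that is known to inhibit lipoprotein lipase and the uptake of VLDL. It was at 0.91, 1.95, 0.56 and 3.15 CPM in WT mice F1, F2, F3 and M1 and at 20.5, 7.47 and 4.02 CPM in LC3b-/- F1, F3 and M. All 3 LC3b-/- libraries were above all 4 WT libraries, with LC3b-/- F1 far above the others. The log2 fold change was 2.70 ± 0.73 (SE) with a 95% interval of 1.00 to 4.40, and it did not pass the main test (edgeR adjusted p = 0.105, DESeq2 adjusted p = 0.00448, exact two-sided permutation p = 0.0571). Without LC3b-/- F1 it was 1.81, and without WT M1 it was 3.23. The levels followed those of the ocular surface markers in nearly the same order of libraries: the marker sum was 16366 CPM in LC3b-/- F1, 3985 in LC3b-/- F3, 2104 in LC3b-/- M, 2052 in WT M1 and 5.13 in WT F3, and only WT F1 and F2 changed places. The part of those cells in the Apoc1 level was not tested. Macrophage and microglia markers, which mark cells known for Apoc1 expression, summed to 1385 CPM in LC3b-/- M and to 595 to 864 CPM in the other libraries. Lyz2 alone was at 849 CPM in LC3b-/- M, so that sum rests largely on 1 gene. The part of these cells in the Apoc1 level was not tested either.

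Mttp (chr3:137795612-137850729, minus strand) was lower in LC3b-/-. Its level was 13.5, 14.9, 17.6 and 18.2 CPM in WT mice F1, F2, F3 and M1 and 7.37, 9.15 and 11.0 CPM in LC3b-/- F1, F3 and M. No LC3b-/- library reached a WT library, and the male was the highest of each genotype. The log2 fold change was -0.81 ± 0.19 with a 95% interval of -1.26 to -0.36 (edgeR adjusted p = 0.096, DESeq2 adjusted p = 0.00365, exact two-sided permutation p = 0.0286, the smallest that 35 splits allow). Leaving out single libraries gave values between -0.96 and -0.68.

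Pltp (chr2:164677702-164701743, minus strand), the most abundant of the 10 per length, had a level of 1045, 962, 1326 and 1568 CPM in WT mice F1, F2, F3 and M1 and of 447, 466 and 824 CPM in LC3b-/- F1, F3 and M. The LC3b-/- females were at less than all WT libraries by a wide margin and the male was nearer to them, again without overlap. Its fold change on the log2 scale was -1.08 ± 0.29 with a 95% interval of -1.77 to -0.39 (edgeR adjusted p = 0.107, DESeq2 adjusted p = 0.003, exact two-sided permutation p = 0.0286). Pltp was called by edgeR with sex as a covariate (log2 fold change -1.18, adjusted p = 0.0471) and without LC3b-/- M (-1.43, adjusted p = 0.0478).

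Pltp followed the summed RPE markers in the order of the libraries, and so did Mttp except that WT F1 and F2 changed places. Lrp8 also had the order of this sum within each genotype. Levels were therefore also set against the sum, a choice made after the data were seen. Because the sum was lower in LC3b-/-, dividing by it added the same 0.98 to the log2 difference of every gene. Per 1000 CPM of RPE markers, Pltp was at 34.0, 31.8, 35.2 and 33.0 CPM in WT mice F1, F2, F3 and M1 and at 33.5, 29.3 and 29.1 CPM in LC3b-/- F1, F3 and M. These values overlap, with a log2 difference of -0.13. Mttp was at 0.446 ± 0.0474 (SD, n = 4) and 0.505 ± 0.102 (n = 3) CPM per 1000 CPM of RPE markers, with a log2 difference of 0.16. Ttr and Rgr made up 33.2% to 45.4% and 26.3% to 32.6% of the marker sum. With the geometric mean of the 10 markers in its place, in which each marker weighs the same and which adds 0.77 to every gene, Mttp differed by -0.05 and overlapped, and Pltp differed by -0.34 and did not overlap. Over the 9 tested genes, 4 lay above every WT library and 0 below relative to the sum, as 46.2% and 0.412% of all genes did, and 4 lay above and 1 below relative to the geometric mean, as 43.6% and 0.677% did. Both scalings shift the genes upwards, so the counts of genes above WT describe the scaling and not the 9 genes. Pltp was the 1 gene below, relative to the geometric mean (exact two-sided permutation p = 0.0286), and it overlapped relative to the sum. Its place therefore depends on how the markers are weighed, and a difference of Pltp beyond that of the markers was not tested.

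**Figure D2:**
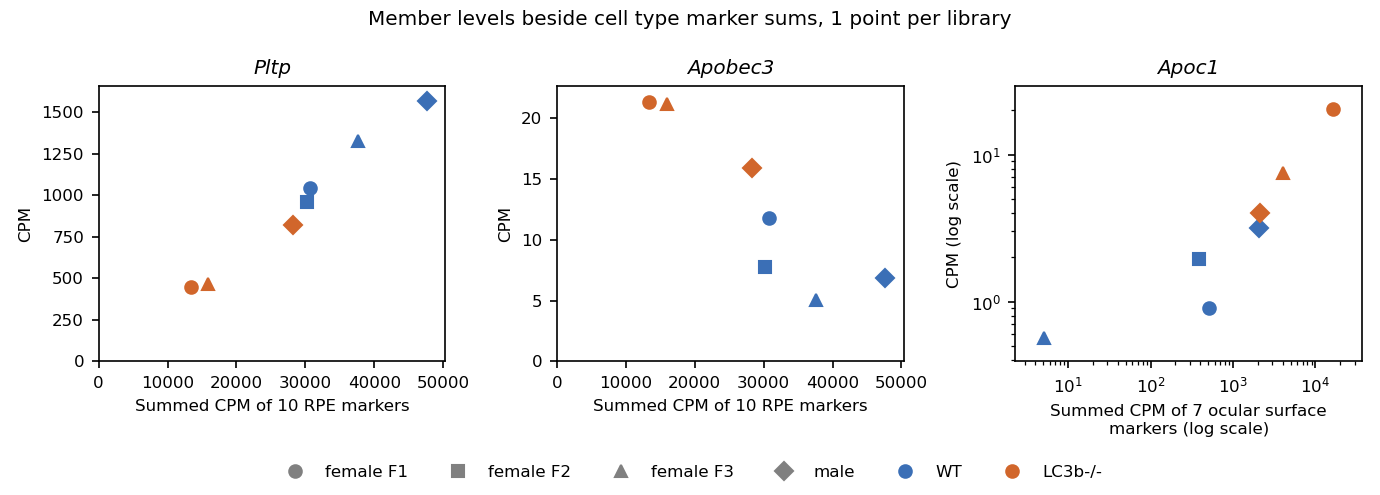
CPM of Pltp and Apobec3 against the summed CPM of 10 RPE markers (linear axes from 0), and CPM of Apoc1 against the summed CPM of 7 ocular surface markers (log axes), with 1 point per library, blue for WT and orange for LC3b-/-. Pltp lies near a line through 0 at about 33.5 CPM per 1000 CPM of RPE markers in WT, Apobec3 is highest where the RPE sum is lowest, and Apoc1 is highest in LC3b-/- F1, where the ocular surface sum is 16366 CPM.

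Lpl (chr8:69284603-69360100, plus strand) encodes lipoprotein lipase, which hydrolyses the triglyceride of chylomicrons and VLDL. It was at 37.9, 22.3, 34.7 and 20.3 CPM in WT mice F1, F2, F3 and M1 and at 77.4, 44.1 and 25.9 CPM in LC3b-/- F1, F3 and M. The LC3b-/- females were above all WT libraries and the male fell among them, so the genotypes overlapped. The log2 fold change of 0.77 ± 0.38 (95% interval -0.13 to 1.67) did not pass (edgeR adjusted p = 0.264). It was 0.28 without LC3b-/- F1 and 1.07 without LC3b-/- M. Lpl lies on chromosome 8, as Map1lc3b does, 53.0 Mb away. Adipocyte markers, from cells known for high Lpl expression, summed to 4.19 to 13.0 CPM in WT and 10.7 to 15.3 CPM in LC3b-/-, and 4 of the 6 (Adipoq, Plin1, Cidec and Lep) were too low to test. Fabp4 alone was at 3.74 to 11.6 CPM in WT and 9.87 to 14.8 CPM in LC3b-/-, so that sum rests largely on 1 gene. The part of adipocytes in the Lpl level was not tested.

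Apobec1 (chr6:122553765-122580071, minus strand) encodes the catalytic subunit that edits Apob mRNA. Its level was 6.97, 6.42, 3.26 and 5.38 CPM in WT mice F1, F2, F3 and M1 and 14.0, 17.7 and 8.33 CPM in LC3b-/- F1, F3 and M. Every LC3b-/- library was higher than every WT library, and LC3b-/- M lay closest to them. On the log2 scale the difference was 1.28 ± 0.34, with a 95% interval of 0.49 to 2.06 (edgeR adjusted p = 0.103, DESeq2 adjusted p = 0.0115, exact two-sided permutation p = 0.0286). Values without single libraries lay between 1.00 (without LC3b-/- F3) and 1.52 (without LC3b-/- M).

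Apobec3 (chr15:79775860-79800206, plus strand) encodes a related deaminase known for restricting retroviruses, with no known part in Apob editing. It was measured at 11.8, 7.79, 5.02 and 6.88 CPM in WT mice F1, F2, F3 and M1 and at 21.3, 21.1 and 15.9 CPM in LC3b-/- F1, F3 and M. The genotypes did not overlap and the LC3b-/- libraries differed little among themselves. Apobec3 had a log2 fold change of 1.31 ± 0.29, with a 95% interval of 0.64 to 1.97 (edgeR adjusted p = 0.0911, DESeq2 adjusted p = 0.00143, exact two-sided permutation p = 0.0571). It was called by edgeR without WT F1, the highest WT library (1.57, adjusted p = 0.0472).

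Endothelial and ocular surface markers were higher in the same libraries as both deaminase genes, with sums that did not overlap between the genotypes, and their part in these levels was not tested. Macrophage and microglia markers overlapped (595 to 777 CPM in WT and 624 to 1385 CPM in LC3b-/-), with 6 of 12 higher and 6 lower. Of these 12, Lyz2 (log2 fold change 1.21, edgeR adjusted p = 0.104) and Cd68 (1.03, edgeR adjusted p = 0.137) lay above every WT library in all LC3b-/- libraries and none lay below, and their part was not tested. Of the cofactor genes of editing, A1cf was at 0 to 2 counts per library, too low to test. Rbm47, whose product can take its place in editing, was at 82.7 ± 21.7 CPM in WT and 61.0 ± 10.4 CPM in LC3b-/-. Its log2 fold change was -0.44 ± 0.22 (edgeR adjusted p = 0.263). Syncrip, described with the other pathway genes, lay in the other direction, at 0.23 ± 0.12 (edgeR adjusted p = 0.286).

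Vldlr (chr19:27193862-27231631, plus strand) encodes the VLDL receptor, which binds particles carrying apolipoprotein E and, with Lrp8, the signal protein reelin. It was at 89.6, 124, 117 and 139 CPM in WT mice F1, F2, F3 and M1 and at 37.5, 82.9 and 104 CPM in LC3b-/- F1, F3 and M. LC3b-/- F1 and F3 were below every WT library, and LC3b-/- M was above WT F1. The log2 fold change of -0.65 ± 0.33 (95% interval -1.43 to 0.13) did not pass (edgeR adjusted p = 0.273), and it was -0.33 without LC3b-/- F1 and -0.97 without LC3b-/- M.

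Lrp8 (chr4:107659066-107734038, plus strand), the gene of the second apolipoprotein E receptor, was at 129, 107, 188 and 209 CPM in WT mice F1, F2, F3 and M1 and at 42.4, 82.6 and 144 CPM in LC3b-/- F1, F3 and M. The order of the libraries within each genotype was that of Pltp, with the male highest, and LC3b-/- M lay above WT F1 and F2. This gives a log2 fold change of -0.82 ± 0.42, with a 95% interval of -1.81 to 0.16 (edgeR adjusted p = 0.276), and single libraries moved it from -1.35 (without LC3b-/- M) to -0.49 (without LC3b-/- F1).

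Lrp1 (chr10:127374012-127457017, minus strand) encodes a large endocytic receptor that takes up remnant particles and many other ligands. Its level was 1164, 874, 1236 and 1238 CPM in WT mice F1, F2, F3 and M1 and 903, 870 and 1245 CPM in LC3b-/- F1, F3 and M. The genotypes overlapped over almost their whole range, and the highest and the lowest library were both LC3b-/-. The log2 fold change was -0.17 ± 0.21, and its 95% interval of -0.66 to 0.33 covers 0 (edgeR adjusted p = 0.665).

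**Figure D3:**
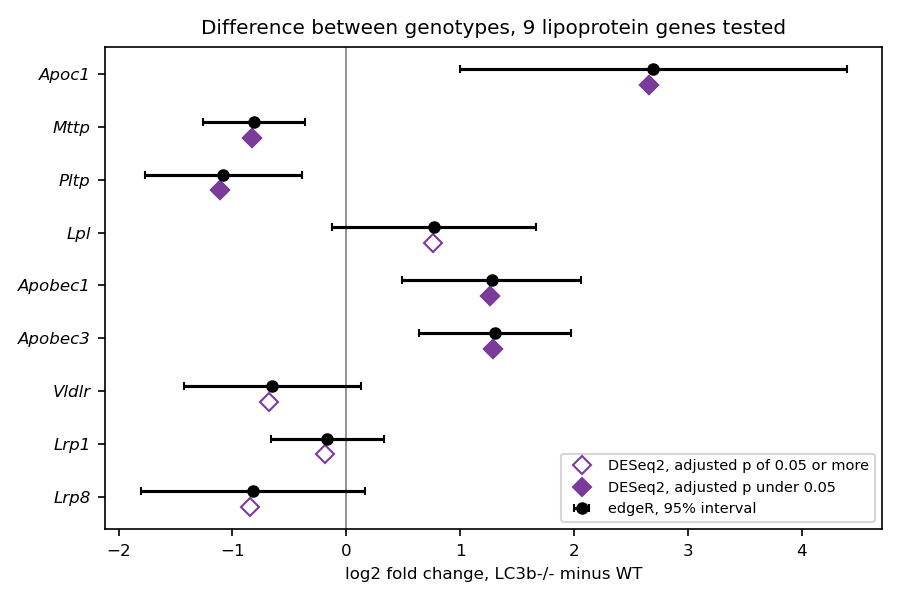
Log2 fold change of LC3b-/- against WT for the 9 genes tested, with black points and 95% intervals from edgeR and diamonds from DESeq2, filled where the DESeq2 adjusted p was under 0.05. The 5 filled diamonds belong to Apoc1 (2.66), Mttp (-0.83), Pltp (-1.11), Apobec1 (1.26) and Apobec3 (1.29), and the edgeR intervals of Lpl, Vldlr, Lrp1 and Lrp8 include 0.

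Some of these genes share sequence with a neighbour, in most cases on the opposite strand. The kit marks strand, and whether strand was used in counting is not given in the sources used here. Pltp shares 1252 exon bases with Ctsa, the gene of a lysosomal protease, whose log2 fold change was -0.28 (edgeR adjusted p = 0.324). Mttp shares 768 bases with Trmt10a (log2 fold change -0.22, edgeR adjusted p = 0.563), and Lrp8 shares 263 bases with the antisense RNA Lrp8os3, at 405 counts over all libraries (-1.61, edgeR adjusted p = 0.183). Lrp1 shares 1271 bases with the antisense RNA Gm67009, which was not in the count table. Apobec3 shares 206 bases with Cbx7 (-0.00, edgeR adjusted p = 0.99). It also shares 676 bases with Gm59337, which lies on the same strand and held 16 counts over all libraries. The longest Apobec3 transcript shares stretches of 119 to 186 bases at 95% identity or more with transcripts of other genes such as Gm59337, Cdpf1, Thada and Zw10. A part of the Apobec3 counts is therefore uncertain.

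Over the 7 libraries, the protein-coding genes with the pattern most like each gene were named by Pearson's r of log2 CPM, as a description in which the points share library and genotype. For Pltp these were Bdh2, Arhgef37 and Cryz (r = 0.999, 0.999 and 0.999), and for Lrp8 Itgb8, Mosmo and Intu (0.998, 0.997 and 0.996). Mttp was most like Emc8, Sar1b and Zfp580 (each 0.994). Sar1b is itself a lipoprotein secretion gene and is described with the other pathway genes. Among the genes most like Apoc1 were Fam83f and Fabp6 (0.992 and 0.986), and Lpl was most like Fat1, Cobl and Tgm1 (0.995, 0.994 and 0.984). Apobec1 was closest to Muc1, Ocm and Kcnj15 (0.988, 0.984 and 0.982), and Apobec3 to Pimreg, Pkn3 and Sulf2 (0.997, 0.996 and 0.991). Vldlr was closest to Gm57857, Bcat1 and B4galt2 (0.995, 0.994 and 0.988) and Lrp1 to Irs2, Tfdp2 and Zzz3 (0.983, 0.980 and 0.980).

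Besides these 10 genes, 72 other genes of the lipoprotein pathway were examined, of which 61 could be tested. None was called by edgeR. At an unadjusted p under 0.05, 6 of the 61 were higher and 9 were lower, beside 13.5% and 10.6% of all genes. DESeq2 called 2 higher, Lipg among them, and 2 lower (Lrp2 and Pla2g7). The shares were 7.57% and 3.89% of the 15976 genes that had a DESeq2 adjusted p. Some rare pathway genes, Apoa2 and Apoc4 among them, had no DESeq2 adjusted p and could not be called. In 7 of the 61 genes every LC3b-/- library lay above every WT library and in 4 below. Over all genes tested, 12.0% lay above and 10.3% below. The median log2 difference was -0.05, against 0.01 over all genes tested.

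**Figure D4:**
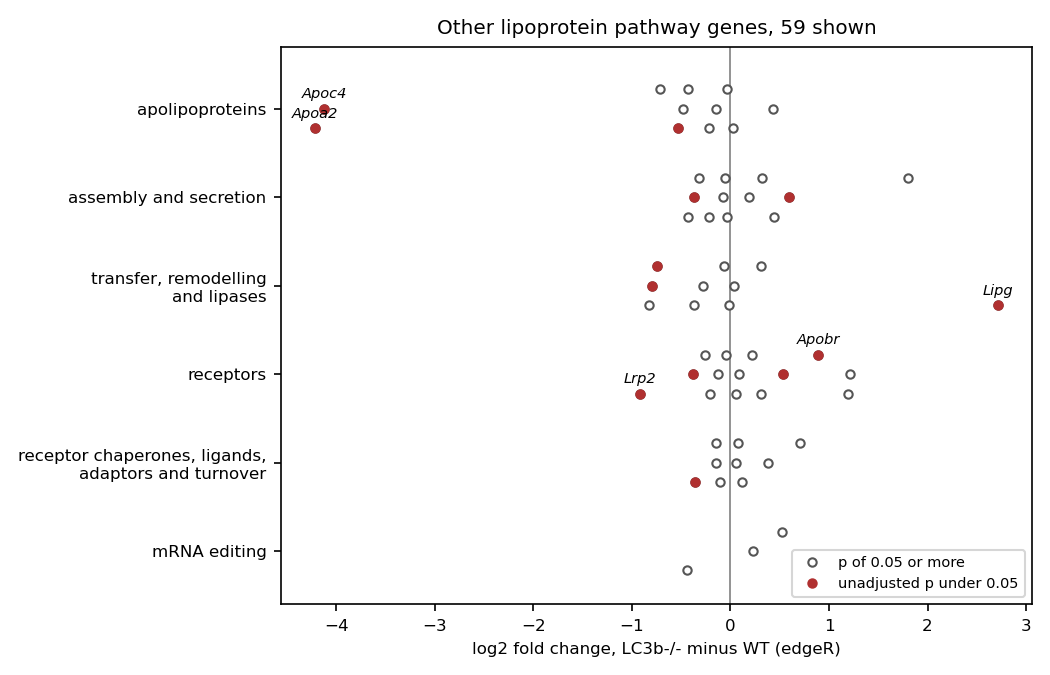
Log2 fold change (edgeR, LC3b-/- minus WT) of 59 of the 61 other pathway genes tested, arranged by role, with red points for an unadjusted p under 0.05; the height within a role has no meaning. Most points lie within 1 log2 unit of 0, Lipg (2.71) stands out on the higher side, and the values of Apoa2 and Apoc4 rest on at most 2 counts per LC3b-/- library.

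Of the apolipoproteins, 11 of 15 were tested, with 2 higher and 9 lower and a median of -0.43. Apoe, the ligand of Vldlr, Lrp1 and Lrp8, and Clu, which encodes clusterin, were the most abundant per length at 3535 and 3116 CPM per kb in WT. Apoe was at 7710 ± 1386 CPM in WT and 5720 ± 1075 CPM in LC3b-/-, a log2 fold change of -0.43 ± 0.26 (edgeR adjusted p = 0.352), and Clu at 5659 ± 1396 and 3458 ± 1236 CPM (-0.71 ± 0.33, edgeR adjusted p = 0.231). Apoo, a mitochondrial protein of the cristae in spite of its name, was at 50.5 ± 4.10 and 34.8 ± 6.31 CPM (-0.54 ± 0.14, edgeR adjusted p = 0.106). The rare Apoa2 held 26, 10, 7 and 12 counts in WT mice F1, F2, F3 and M1 and 2, 0 and 0 counts in LC3b-/- F1, F3 and M (edgeR adjusted p = 0.0982). Apoc4, a neighbour of Apoc1 in the Apoe gene cluster, held 16, 11, 1 and 37 counts in WT and 1, 2 and 0 counts in LC3b-/- (edgeR adjusted p = 0.129). The mean of Apoc4 was lower in LC3b-/-, where that of Apoc1 was higher. The genotypes overlapped for Apoc4, with WT F3 at 0.0374 CPM and the LC3b-/- libraries at 0 to 0.0502 CPM. Within WT both genes were highest in M1 and lowest in F3.

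Among assembly and secretion genes 12 of 13 were tested, with 5 higher and 7 lower. P4hb, the protein disulfide isomerase that forms the small subunit of the MTTP complex, was the most abundant per length at 86.2 CPM per kb in WT. It was at 253 ± 4.80 CPM in WT and 317 ± 61.9 CPM in LC3b-/- (0.33 ± 0.15, edgeR adjusted p = 0.235), which is the direction opposite to Mttp. LC3b-/- F1 at 389 CPM stood apart, with LC3b-/- F3 and M at 276 and 288 CPM nearer to WT. Sar1b, a GTPase of the COPII vesicles that carry chylomicrons, was the next most abundant at 52.2 CPM per kb. It was at 65.8 ± 5.58 and 51.1 ± 4.88 CPM without overlap (-0.37 ± 0.12, edgeR adjusted p = 0.134). Dgat2, an enzyme of triglyceride synthesis, was at 13.4 ± 1.24 and 20.3 ± 3.80 CPM without overlap (0.60 ± 0.16, edgeR adjusted p = 0.105).

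For transfer, remodelling and lipase genes 10 of 12 were tested, with 3 higher and 7 lower. Lipg, endothelial lipase, a phospholipase of HDL, was at 1.46, 0.99, 0.52 and 0.27 CPM in WT mice F1, F2, F3 and M1 and at 7.09, 3.31 and 5.79 CPM in LC3b-/- F1, F3 and M. The genotypes did not overlap, and the log2 fold change of 2.71 ± 0.57 was short of the main threshold (edgeR adjusted p = 0.0906, DESeq2 adjusted p = 0.000193). Endothelial markers were higher in the same libraries, by a median of 0.92 on the log2 scale, and their part in this level was not tested. Pon1 and Pla2g7, which encode enzymes carried on lipoproteins and were the most abundant of this role at 241 and 85.6 CPM per kb in WT, had log2 fold changes of -0.79 ± 0.33 and -0.74 ± 0.27 (edgeR adjusted p = 0.203 and 0.161).

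Of the other receptors 15 of 16 were tested, with 9 higher and 6 lower. Lrp2, megalin, an endocytic receptor of the apical membrane in absorptive epithelia, was at 176 ± 47.3 and 92.9 ± 24.1 CPM without overlap (-0.92 ± 0.26, edgeR adjusted p = 0.113, DESeq2 adjusted p = 0.0103). Scarb1, the HDL receptor and the most abundant of this role at 43.1 CPM per kb in WT, had a log2 fold change of -0.38 ± 0.15 (edgeR adjusted p = 0.189), and Lrp10, the next at 28.0 CPM per kb, one of -0.13 ± 0.15 (0.618). Apobr, a receptor for apolipoprotein B-48 on macrophages, and Lsr, a receptor of remnant particles in liver that also builds tricellular junctions, were at log2 fold changes of 0.89 ± 0.31 and 0.54 ± 0.20 (edgeR adjusted p = 0.151 and 0.173).

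Genes of receptor chaperones, ligands, adaptors and turnover were all tested, 6 higher and 4 lower of 10. Sort1, sortilin, was at 185 ± 21.4 and 145 ± 13.3 CPM (-0.36 ± 0.14, edgeR adjusted p = 0.179). Lrpap1, the chaperone of Lrp1 in the secretory path, and Snx17, which returns receptors to the surface, were the most abundant per length at 49.4 and 38.2 CPM per kb and had log2 fold changes of -0.14 ± 0.15 and -0.11 ± 0.14 (edgeR adjusted p = 0.6 and 0.662). Of the mRNA editing genes 3 of 6 were tested, and Syncrip and Rbm47 were the most abundant per length at 20.3 and 15.8 CPM per kb in WT. Syncrip, an RNA-binding protein found with the editing complex, had a log2 fold change of 0.23 ± 0.12 (edgeR adjusted p = 0.286).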

How the data were processed

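RNA from RPE of 4 WT and 3 LC3b-/- mice was sequenced as stranded polyadenylated libraries with single reads. The authors estimated reads per transcript with Salmon v1.9.0 against GENCODE vM26 (GRCm39) and summed them to genes with tximeta v1.16.1. The deposited values are estimated counts per gene, as whole numbers, not scaled for library size; 0 columns were left unused. Of 52740 identifiers, 51721 were matched to GENCODE vM39, on the same build, for symbols and lengths.

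The genotypes were compared over all 7 libraries with edgeR 4.0.16 in R 4.3.3 (filterByExpr, TMM and glmQLFTest, no covariates; Benjamini-Hochberg adjustment over 16990 genes). Calls needed an adjusted p under 0.05 and at least a 1.5-fold difference. CPM were TMM-scaled; log2 CPM used a prior count of 2. Permutation tests are exact and two-sided over 35 splits. With 24495952 to 35616134 counts per library and a biological coefficient of variation of 0.398, replicate spread rather than counting limited precision for all genes but the rarest. Replicates are separate mice. A gene was named if it was one of the 10, or if it was called, was among the 3 smallest unadjusted p under 0.05 per role and direction, or was among the 2 most abundant per role and length. Some genes that this rule names are not reported here. The genes and lists were chosen with earlier results of these data known.

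Alternatives were DESeq2 1.42.0, limma 3.58.1 voom with sample quality weights, other size factors and filters, sex as a covariate, females only, a replicate block and leaving out each library; scaling to RPE markers was added after seeing the data. Near-identical transcripts were searched with BLAST 2.17.0 (at least 95% identity over 100 bases), and figures were drawn with matplotlib 3.10.9 in Python 3.11.15. The code was tested on simulated data.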

Additional observations from a re-analysis of the deposited data

Results flagged for a closer look

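Dixon's criterion for 4 values, which chance meets in about 1 of 20 groups, was applied to the WT libraries. It covered 9 of the 10 main genes (all but Apob) and the 61 other pathway genes tested. The criterion set apart 1 WT library for 3 genes of the pathway and for none of the 9 main genes, a number that chance can give. For Olr1, the receptor of oxidised LDL, WT M1 was at 3.00 CPM, with a gap of 0.92 of the WT range. For Mylip, which encodes a ubiquitin ligase, WT M1 was at 66.2 CPM and the gap was 0.936 of the range. For Syncrip, WT F3 was at 68.6 CPM and the gap was 0.851 of the range.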

How the results depend on the processing

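None of the 9 genes tested changed direction under another tool, filter, size factor, covariate or left-out library. Relative to the summed RPE markers, a scaling added after seeing the data, the log2 differences of Mttp (0.16), Vldlr (0.22), Lrp1 (0.81) and Lrp8 (0.04) were above 0, which follows from the 0.98 that this scaling adds to every gene. edgeR called 40 of all genes in the main fit, 0 of the 10 lipoprotein genes and 0 of the other pathway genes. With DESeq2 these counts were 1831, 5 and 4. Over all genes, limma's voom with sample quality weights called 124, no filter on low counts 78, sex as a covariate 197 (1 lipoprotein gene, Pltp) and females only 96. Leaving out single libraries gave 11 to 485 calls over all genes (15 without LC3b-/- F1, 215 without WT F1, 485 without LC3b-/- M), 0 to 1 of the lipoprotein genes (Apobec3 without WT F1, Pltp without LC3b-/- M) and 0 to 2 of the other pathway genes (2 without LC3b-/- M, Apoo among them). Of the 9 genes tested, 5 did not overlap between the genotypes, 8 in females only, and 5 to 8 with single libraries left out (8 without LC3b-/- M); over all genes the shares were 22.3% in the main comparison, 42.8% in females only and 39.6% without LC3b-/- M. The fit with a replicate block by the number in the mouse name called 6 of all genes and 0 of the lipoprotein genes; only 2 pairs share a number, with correlations of 0.146 and 0.243 between their deviations, and nothing in the labels says that the number marks a shared litter, batch or day. The cause of these differences in calls was not tested. The lowest and highest log2 fold changes under all alternatives were 1.81 and 3.62 for Apoc1, and each of the other 8 genes had its range set by leaving out a library or by voom. No genotype by sex difference passed for these genes (edgeR adjusted p = 0.998 for each; unadjusted p = 0.0405 for Apoc1), with 1 male per genotype. At 4 to 11 counts, depth limits what can be said of Apob.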
